A study of Mus musculus with 15 samples.

Results

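The genes described here make cholesterol and fatty acids in mouse germinal centre B cells. A list of 30 symbols was matched to the array's annotation, using probe sets assigned to exactly 1 gene and, for a gene with several, the probe set of highest mean. It found 29 members among the 19938 genes measured, of which 22 belong to sterol synthesis and its control and 7 to fatty acid synthesis. Acat2 was not matched and is not analysed here.

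All 15 samples were SwHEL B cells, which carry an engineered receptor for hen egg lysozyme and the CD45.1 marker, recovered from C57BL/6J (CD45.2) recipients. All recipients had been immunized with sheep red blood cells coupled to the lysozyme mutant HEL3x. On day 10, donor-derived cells of the spleen (CD45.1+, CD45.2-, IgG1+, CD38 low) were sorted by zone, the light zone being CD86 high and CXCR4 low and the dark zone the reverse, and then by affinity, high or low. CD86 and CXCR4 thus define the zones and are no result. The groups were Dzhi (dark zone, high affinity, 4 arrays), Dzlo (dark zone, low affinity, 4 arrays), Lzhi (light zone, high affinity, 3 arrays, titled replicates 1, 2 and 4) and Lzlo (light zone, low affinity, 4 arrays). The labels give the strain or background as SWHEL and the sex as female, no age, and nothing on whether a sample came from 1 mouse or a pool. P-values therefore measure the spread between these samples, which may be technical.

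Cells make cholesterol from acetyl-CoA through mevalonate, isoprenoid diphosphates, squalene and lanosterol, and make fatty acids from the same acetyl-CoA through malonyl-CoA. Both pathways are switched on by the sterol regulatory element binding proteins, of which SREBP-2, encoded by Srebf2, acts mainly on sterol genes and SREBP-1, encoded by Srebf1, on fatty acid genes. When sterols are scarce, Scap carries these proteins to the Golgi for cleavage, and Insig1 holds the complex back when sterols are plentiful. Germinal centre B cells divide in the dark zone and are selected in the light zone, where they receive help from T cells, and dividing cells need both kinds of lipid for membranes.

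Promoter sequences were examined because the sterol members lay together between the zones, as described further on. RefSeq sequences of GRCm38.p6 were held for 23 of the 29 members, 18 sterol and 5 fatty acid. Fdps, Fdft1, Sqle, Stard4, Scd1 and Scd2 had no entry. The 250 bases before each listed start were searched on both strands for TCACNCCAC (a core form of the sterol regulatory element), CCAAT (the NF-Y box, which often accompanies that element) and CACGTG (an E-box). No motif contains another, and in the sequences printed here the only overlap is in Fasn, where a CCAAT shares bases with a CCAAT of the opposite strand. A gene was counted when any of its listed starts held the word. The 5 examples are printed 5′ to 3′ on the gene's strand, with matches on either strand in capitals. Hmgcs1 is shown for the TCACNCCAC match, Insig1 and Dhcr7 as the members with a promoter entry whose zone differences had the smallest p-values, Msmo1 for its repeated CCAAT boxes, and Fasn as the fatty acid gene with the most matches.
Hmgcs1 (chr13:119690101-119690350, plus strand): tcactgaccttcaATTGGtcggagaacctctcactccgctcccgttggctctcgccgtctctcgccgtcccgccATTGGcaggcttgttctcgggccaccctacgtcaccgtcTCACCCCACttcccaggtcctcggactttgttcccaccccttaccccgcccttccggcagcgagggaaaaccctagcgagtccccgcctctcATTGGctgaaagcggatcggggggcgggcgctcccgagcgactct
Insig1 (chr5:28071162-28071411, plus strand): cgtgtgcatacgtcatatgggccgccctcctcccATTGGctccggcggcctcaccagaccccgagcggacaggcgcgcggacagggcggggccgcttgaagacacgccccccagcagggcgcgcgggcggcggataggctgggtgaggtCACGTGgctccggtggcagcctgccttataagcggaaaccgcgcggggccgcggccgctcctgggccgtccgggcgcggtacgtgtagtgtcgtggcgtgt
Dhcr7 (chr7:143829964-143830213, plus strand, the listed start with CCAAT): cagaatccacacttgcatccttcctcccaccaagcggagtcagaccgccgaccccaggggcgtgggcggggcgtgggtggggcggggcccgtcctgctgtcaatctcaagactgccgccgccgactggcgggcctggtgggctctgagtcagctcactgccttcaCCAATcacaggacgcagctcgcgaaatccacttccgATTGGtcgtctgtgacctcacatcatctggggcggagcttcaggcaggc
Msmo1 (chr8:64733579-64733828, minus strand): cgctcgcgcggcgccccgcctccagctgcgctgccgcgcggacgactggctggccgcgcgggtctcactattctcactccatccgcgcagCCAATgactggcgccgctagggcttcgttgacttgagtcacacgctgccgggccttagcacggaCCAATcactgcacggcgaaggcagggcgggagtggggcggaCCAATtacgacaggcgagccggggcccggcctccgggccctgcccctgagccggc
Fasn (chr11:120824548-120824797, minus strand): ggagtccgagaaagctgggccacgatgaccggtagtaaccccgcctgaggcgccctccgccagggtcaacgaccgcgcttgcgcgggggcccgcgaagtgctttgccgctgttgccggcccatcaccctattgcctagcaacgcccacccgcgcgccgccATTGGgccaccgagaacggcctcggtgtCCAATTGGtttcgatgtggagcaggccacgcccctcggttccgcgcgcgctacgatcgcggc

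CCAAT stood in 17 of 18 sterol promoters (94.4%), in 2 of 5 fatty acid promoters (40%; Srebf1 and Fasn), and in 37.5% of the promoters of 27025 genes. Scap was the sterol member without it. TCACNCCAC stood in the Hmgcs1 promoter alone among the members, 1 of 18 sterol promoters (5.56%) against 1.22% of all genes. CACGTG stood in 5 of 18 sterol promoters (27.8%; Hsd17b7, Sc5d, Dhcr7, Scap and Insig1), in 0 of 5 fatty acid promoters and in 6.86% of all genes. These are matches of letters, not measured binding, and they say nothing of the factors where the word is missing.

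The values are deposited log2 RMA values, on which a difference of 1 is a doubling, and array medians ran from 5.57 to 5.74. The label of germinal centre B cell was checked on marker genes. The 5 measured B cell markers had medians over the arrays between 9.89 (Cd79a) and 12.05 (Cd79b), and the 5 measured germinal centre markers between 8.09 (S1pr2) and 11.66 (Rgs13). Among neutrophil markers, S100a9 (9.575) and S100a8 (8.61) also had medians above that of S1pr2. The others had medians from 3.82 (Mmp8) to 7.24 (Ngp). Samples also carry a date-like code in their descriptions whose meaning the labels do not give, here A to D. Codes A, B and C each cover all 4 groups, code D has no Lzhi array, and code B is written in 1 form for dark zone arrays and another for light zone arrays. The Dzlo and Lzlo arrays of code D stood apart. The mean centred level of 12 neutrophil markers was 1.67 and 2.98 there, against -1.17 to 0.52 on the other 13 arrays. The same level for 8 T cell markers was 1.64 on that Lzlo array, against -0.45 to 0.71 on the other arrays. Medians of the sterol and fatty acid genes in the zone and affinity comparisons that use these arrays are also given without 1 or both of them. Most other differences, among them those of marker lists and of genes outside the members, are given with all arrays only.

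Sterol and fatty acid genes together lay higher in the light zone than in the dark zone, by a median of 0.42 on the log2 scale for the sterol genes and 0.36 for the fatty acid genes, against -0.0054 over all genes. The difference was above 0 for 20 of 22 sterol genes and 6 of 7 fatty acid genes, where 48.0% of all genes lay above 0. No member passed at an adjusted p under 0.05 in limma's test of both affinities together, in which 31 genes, or 0.155% of those tested, did. At an unadjusted p under 0.05 limma had 11 of the 29 members higher in the light zone, 9 sterol (Fdps, Fdft1, Sqle, Lss, Tm7sf2, Msmo1, Nsdhl, Dhcr7 and Insig1) and 2 fatty acid (Scd1 and Acaca), against 2.47% of all genes. Of 17 genes of mitosis, 16 lay below 0 in the same comparison with a median of -0.48. None of them passed in limma (5 did with the code, both forms of B merged, as a block), 10 had an unadjusted p under 0.05, and their part in the members' differences was not tested. In bulk arrays a difference in the share of cells and a difference in RNA per cell cannot be told apart.

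**Figure D1:**
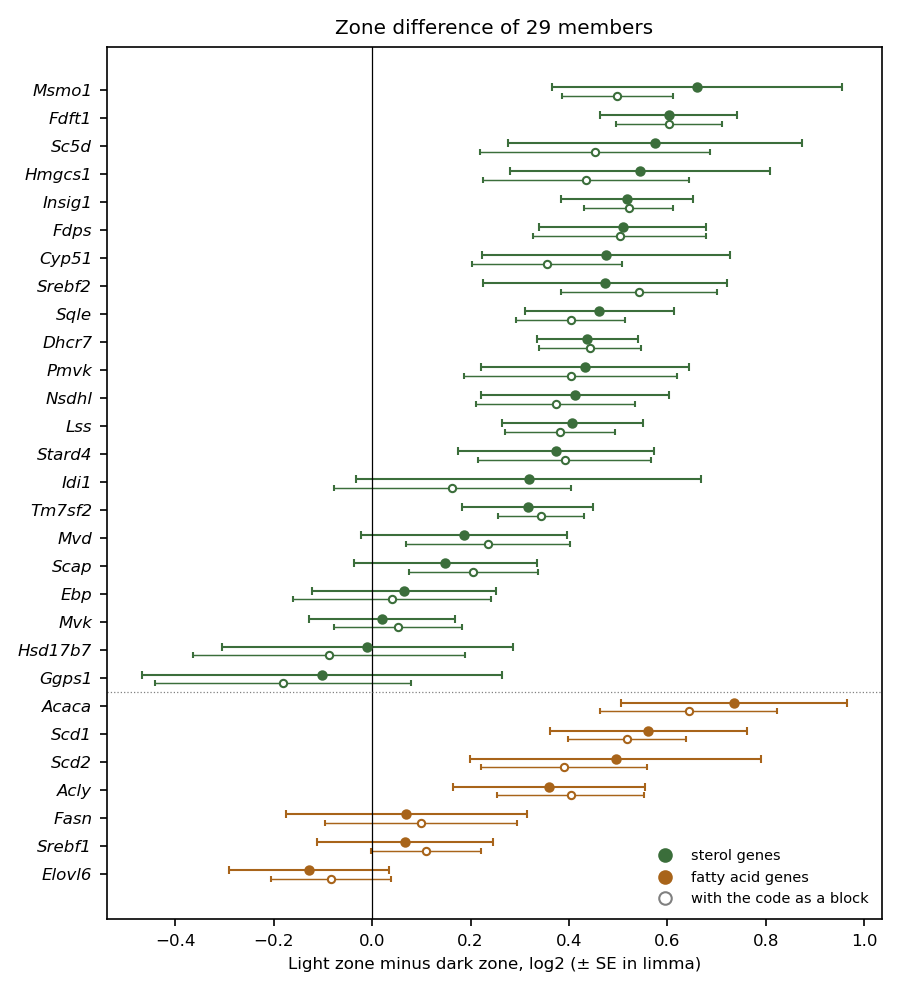
Light zone minus dark zone difference on the log2 scale (x axis) for each of the 29 members (y axis), with filled points from the fit of 4 group means, open points from a fit that adds the code as a block, and bars of ± 1 SE in limma. All but Hsd17b7, Ggps1 and Elovl6 lay above 0 in the fit of group means, with Acaca highest at 0.74 and Elovl6 lowest at -0.13.

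In the first part of the pathway, from HMG-CoA to the isoprenoids, the median of 7 members was 0.32 and 6 lay above 0. Hmgcs1, which makes HMG-CoA, differed by 0.54 ± 0.26 (SE). Fdps, which makes farnesyl diphosphate, read 8.72, 9.01, 9.17 and 8.002 on the Dzhi arrays of replicates 1 to 4 and 8.51, 8.15, 8.82 and 8.49 on the Dzlo arrays. On the Lzhi arrays it read 9.14, 9.09 and 9.61, and on the Lzlo arrays 8.73, 8.91, 9.25 and 8.94. Only Lzhi replicate 4 and Lzlo replicate 3 lay above all dark zone arrays, and the other light zone arrays fell within the dark zone's range, which Dzhi replicate 3 topped. The difference was 0.51 ± 0.17 (1.42-fold; limma adjusted p = 0.621). Pmvk (0.43), Idi1 (0.32), Mvd (0.19) and Mvk (0.02), the kinases, decarboxylase and isomerase between these enzymes, had smaller differences. Ggps1, which leads away from sterols to the geranylgeranyl groups of proteins, had -0.10.

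Fdft1, squalene synthase and the first enzyme committed to sterols, had the smallest p-value of all members. It read 8.59, 8.67, 8.98 and 8.45 in Dzhi, 8.45, 8.35, 8.54 and 8.48 in Dzlo, 8.90, 9.22 and 9.60 in Lzhi, and 8.59, 9.06, 9.23 and 9.49 in Lzlo. Dzlo was low and tight at 8.45 ± 0.08 (SD, n = 4), and only Lzlo replicate 1 and Lzhi replicate 1 fell within the dark zone's range. The zone difference was 0.60 ± 0.14 (1.52-fold; limma adjusted p = 0.155), and with the merged code as a block it was 0.60 with an adjusted p of 0.0356. Its other probe set gave 0.68 ± 0.24.

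Sqle, squalene epoxidase, read 8.59, 8.90, 9.003 and 8.45 in Dzhi, 8.85, 8.18, 8.09 and 8.81 in Dzlo, 9.43, 9.06 and 9.05 in Lzhi, and 9.12, 8.88, 8.60 and 9.25 in Lzlo. All Lzhi arrays lay above all dark zone arrays, while Lzlo overlapped them, and the share of all genes with such an order was not counted. The zone difference was 0.46 ± 0.15 (limma adjusted p = 0.600). Lss, which closes squalene epoxide into lanosterol, read 6.05, 6.36, 6.71 and 6.33 in Dzhi, 6.16, 5.72, 5.95 and 6.23 in Dzlo, 6.79, 6.26 and 6.89 in Lzhi, and 6.86, 6.36, 6.19 and 6.75 in Lzlo. Lzhi replicate 2 and Lzlo replicates 2 and 3 lay within the dark zone's range. The difference was 0.41 ± 0.14 (limma adjusted p = 0.728).

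The enzymes that turn lanosterol into cholesterol followed a similar range. Msmo1, which removes methyl groups, differed by 0.66 ± 0.29, Sc5d, a desaturase, by 0.58 ± 0.30, and Cyp51, the demethylase, by 0.47 ± 0.25. Nsdhl (0.41) and Tm7sf2 (0.32), a dehydrogenase and a reductase of the ring, came next. Ebp, a sterol isomerase, had 0.07, and Hsd17b7, a ketosteroid reductase, -0.01. The 11 members from Fdft1 onward had a median of 0.44, and 10 lay above 0.

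Dhcr7, the reductase of the last step, was the 1 member whose light zone arrays all lay above all dark zone arrays, as did 0.0802% of all genes. It read 6.45, 6.64, 6.55 and 6.47 in Dzhi, 6.26, 6.38, 6.65 and 6.33 in Dzlo, 6.77, 6.70 and 6.95 in Lzhi, and 7.02, 6.70, 6.90 and 7.38 in Lzlo. The gap was narrow, between 6.65 on Dzlo replicate 3 and 6.70 on the second arrays of both light zone groups. The difference was 0.44 ± 0.10 (1.35-fold; limma adjusted p = 0.159).

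Among the genes of control and transport, Insig1, itself a target of the SREBPs, read 8.29, 8.20, 8.47 and 8.40 in Dzhi and 8.34, 7.64, 8.09 and 8.43 in Dzlo. It read 8.96, 8.54 and 8.98 in Lzhi and 8.52, 8.43, 8.70 and 9.06 in Lzlo. All light zone arrays but Lzlo replicate 2 were above all dark zone arrays. The difference was 0.52 ± 0.13 (1.43-fold; limma adjusted p = 0.253), and it passed with the merged code as a block (0.52, adjusted p = 0.0325). In that blocked fit Fdft1 and Insig1 were the 2 members among the 90 genes, 0.451% of all, that passed. With the 5 forms of the code as written, 35 genes passed in limma and no member was among them. In that fit 1238 genes had an unadjusted p under 0.05, and Fdft1 and Insig1 each had a limma adjusted p of 0.192.

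Srebf2 read 8.26, 8.34, 9.26 and 8.56 in Dzhi, 8.73, 7.85, 9.60 and 8.79 in Dzlo, 8.88, 8.66 and 9.32 in Lzhi, and 9.06, 8.84, 9.77 and 9.69 in Lzlo. The spread within groups was wide, with the code D array of Dzlo the highest of the dark zone, and the zones overlapped. The difference was 0.47 ± 0.25 (limma adjusted p = 1). Scap had 0.15, and Stard4, which moves cholesterol between membranes, had 0.37.

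Srebf1 read 6.84, 6.71, 7.61 and 6.95 in Dzhi, 6.57, 6.74, 7.37 and 6.93 in Dzlo, 6.76, 6.82 and 7.38 in Lzhi, and 6.73, 6.79, 7.47 and 7.32 in Lzlo. The groups covered nearly the same range. The difference was 0.07 ± 0.18 (limma adjusted p = 1), and it was -0.03 without Lzhi replicate 4.

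**Figure D2:**
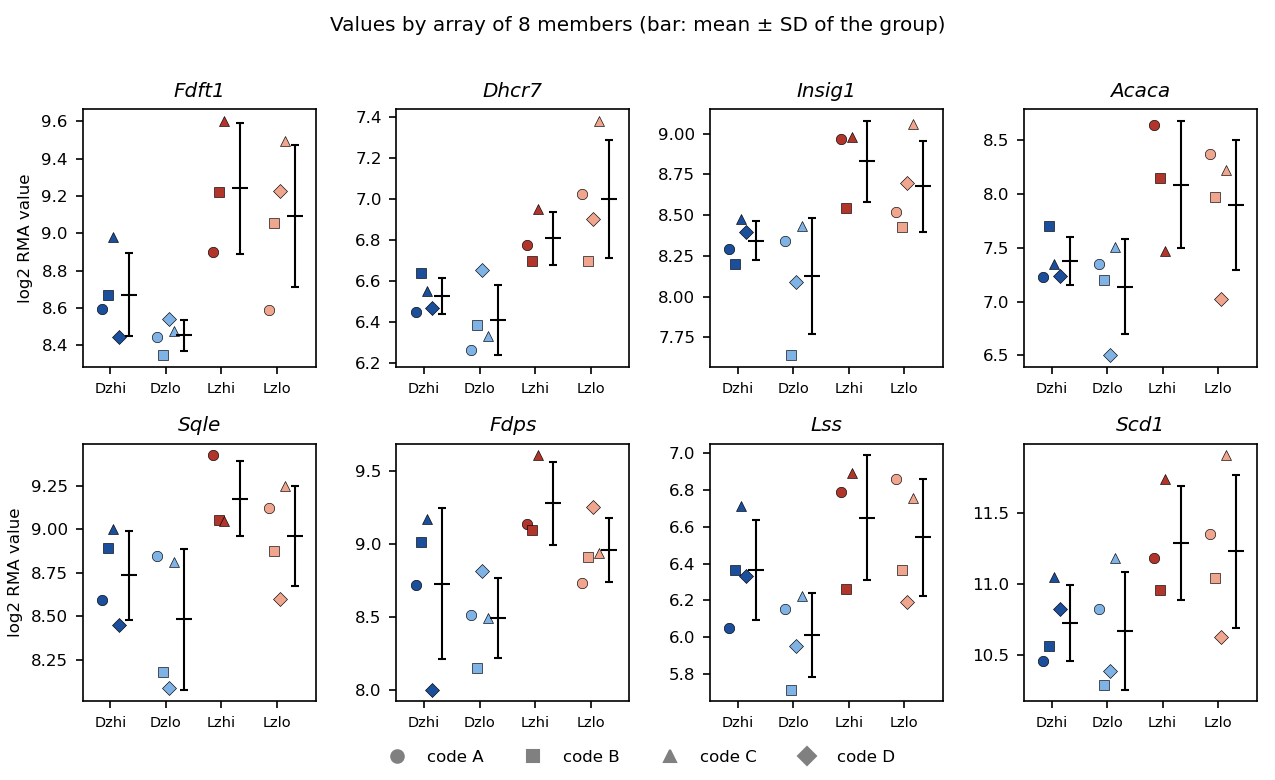
Log2 RMA value (y axis) by group (x axis) on each of the 15 arrays for the 8 members with the smallest zone p-values, with the marker's shape giving the code and bars showing the group mean ± SD. In Dhcr7 the light zone arrays start at 6.70 and the dark zone arrays end at 6.65, and in the other 7 panels the zones overlap.

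The fatty acid genes divided. Acaca, which makes malonyl-CoA, had the largest difference of all 29 members. It read 7.22, 7.70, 7.35 and 7.24 in Dzhi, 7.35, 7.20, 6.50 and 7.51 in Dzlo, 8.65, 8.15 and 7.47 in Lzhi, and 8.37, 7.98, 7.02 and 8.23 in Lzlo. Lzhi replicate 4 and Lzlo replicate 3 lay within the dark zone's range, and the other 5 light zone arrays lay above it. The difference was 0.74 ± 0.23 (1.66-fold; limma adjusted p = 0.532), and its second probe set gave 0.65 ± 0.20.

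Scd1, a desaturase that makes monounsaturated fatty acids, read 10.46, 10.57, 11.05 and 10.82 in Dzhi, 10.83, 10.29, 10.39 and 11.18 in Dzlo, 11.18, 10.95 and 11.73 in Lzhi, and 11.35, 11.04, 10.63 and 11.90 in Lzlo. The arrays of code C were the highest of each group, and the zones overlapped. The difference was 0.56 ± 0.20 (limma adjusted p = 0.737). Scd2, a related desaturase, differed by 0.50 ± 0.30 and Acly, which supplies cytosolic acetyl-CoA, by 0.36 ± 0.20. Fasn, the fatty acid synthase itself, had 0.07 ± 0.25, and Elovl6, which lengthens palmitate, had -0.13 ± 0.16.

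Within pairs of arrays of 1 code and 1 affinity, 13 members were higher in the light zone in 7 of 7 pairs, against 2.06% of all genes. Of these, 10 were sterol genes (Hmgcs1, Fdps, Fdft1, Sqle, Cyp51, Msmo1, Sc5d, Dhcr7, Srebf2 and Insig1) and 3 fatty acid genes (Scd1, Acaca and Acly), and no member was lower in all pairs. Acaca ranged from 0.12 in the high-affinity pair of code C to 1.42 in the high-affinity pair of code A. Fdft1 ranged from 0.14 in the low-affinity pair of code A to 1.01 in the low-affinity pair of code C. Hsd17b7 ran from -1.65 to 1.20 in the same 2 codes, C and A, at high affinity, so that its mean near 0 covered differences of opposite sign.

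**Figure D3:**
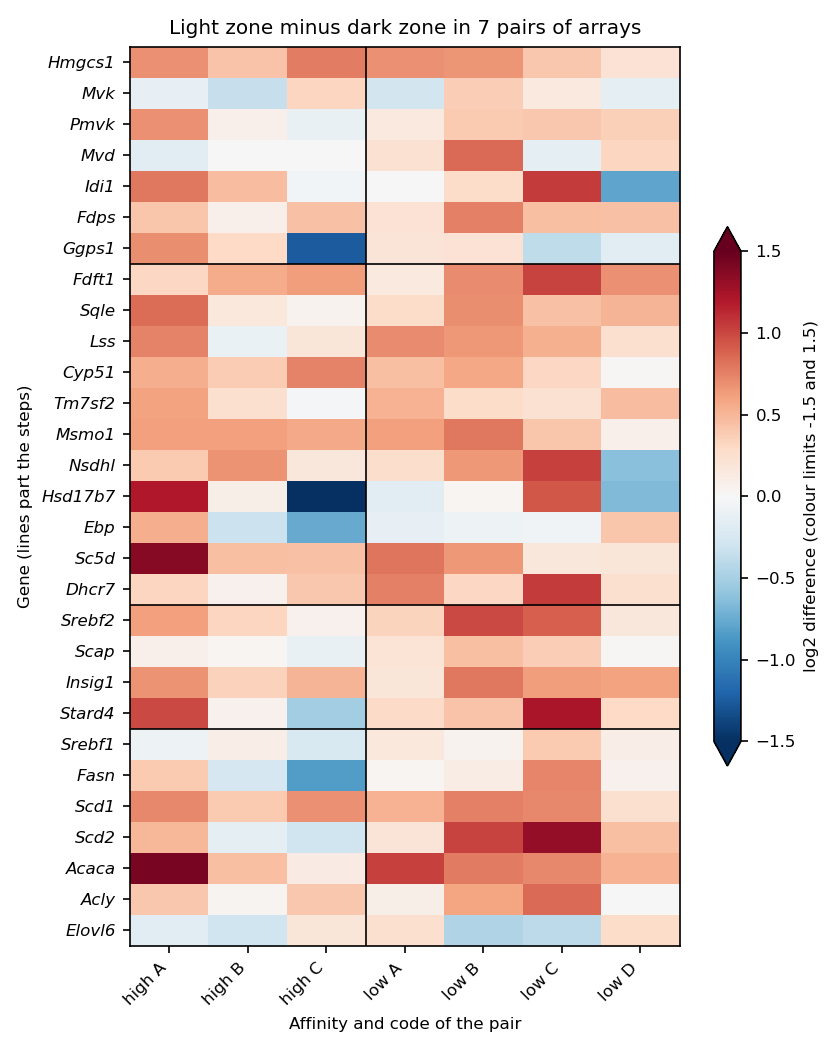
Light zone minus dark zone difference on the log2 scale (colour) for the 29 members (rows, parted by step) in 7 pairs of arrays of the same affinity and code (columns). Rows such as Hmgcs1, Fdft1, Msmo1 and Scd1 are above 0 in every pair, while Ggps1, Hsd17b7, Ebp and Fasn change sign, with their lowest values in the high-affinity pair of code C.

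The sterol median was above 0 in each of the 7 pairs. At high affinity it was 0.62, 0.20 and 0.11 for codes A, B and C, and the fatty acid median was 0.41, 0.04 and 0.12. At low affinity the sterol median was 0.25, 0.61, 0.43 and 0.23 for codes A to D, and the fatty acid median was 0.19, 0.59, 0.72 and 0.24. The median over all genes was 0.08 in the high-affinity pair of code C and between -0.06 and 0.0029 in the other 6. Without the Dzlo and Lzlo arrays of code D the zone medians were 0.47 for sterol and 0.42 for fatty acid genes. Without all arrays of code D they were 0.42 and 0.40, and without all arrays of code B 0.46 and 0.40.

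Sterol and fatty acid genes were set against each other as mean centred levels, in which each gene's mean over the 15 arrays is subtracted. The sterol level was -0.09 ± 0.20 in Dzhi, -0.23 ± 0.20 in Dzlo, 0.26 ± 0.13 in Lzhi and 0.13 ± 0.26 in Lzlo (SD, n = 4, 4, 3 and 4). The fatty acid level was -0.03 ± 0.25, -0.26 ± 0.22, 0.19 ± 0.12 and 0.14 ± 0.30 in the same order. The sterol level minus the fatty acid level was -0.06 ± 0.10, 0.02 ± 0.11, 0.06 ± 0.16 and -0.0088 ± 0.20. Its ranges overlapped in all 4 groups. Within codes, light minus dark zone of this quantity was 0.12, 0.16 and 0.03 at high affinity for codes A, B and C, and -0.03, 0.12, -0.12 and -0.10 at low affinity for codes A to D. High minus low affinity was 0.09, -0.11 and 0.03 in the light zone for codes A to C, and -0.06, -0.16, -0.12 and -0.0077 in the dark zone for codes A to D. The sign was thus the same in every code for the zones at high affinity and for affinity in the dark zone, and mixed in the other comparisons. These values are a description, with no test.

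**Figure D4:**
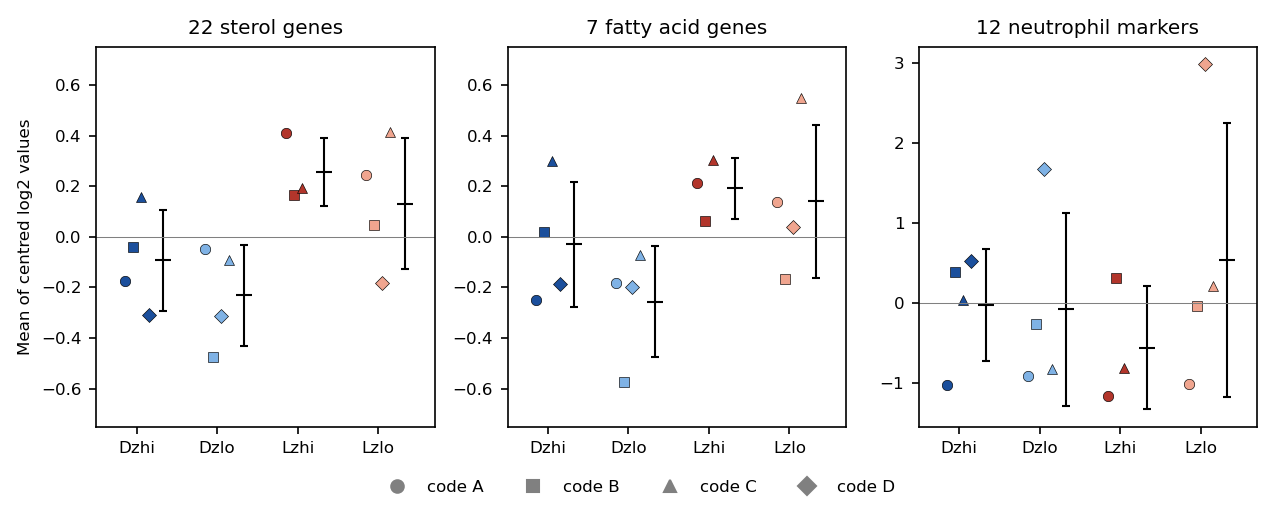
Mean centred log2 level (y axis) of the 22 sterol genes, the 7 fatty acid genes and 12 neutrophil markers on each array by group (x axis), with the marker's shape giving the code and bars showing mean ± SD. The sterol and fatty acid levels stay between -0.57 and 0.55 and overlap between zones, while the neutrophil level reaches 1.67 and 2.98 on the Dzlo and Lzlo arrays of code D.

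On the low-affinity arrays of code D some members lay below and some above the other arrays of their group. On both the Dzlo and the Lzlo array of that code, 9 of the 29 members lay below the other 3 arrays, against 13.4% of all genes. These were Hmgcs1, Idi1, Ggps1, Sqle, Cyp51, Msmo1, Hsd17b7, Sc5d and Acaca. On both, 7 of the 29 members lay above, a share near the 24.7% of all genes and so no trait of the members. These were Mvk, Mvd, Fdps, Tm7sf2, Srebf2, Scap and Srebf1. Sc5d read 6.70 on that Dzlo array against 7.87 to 8.43 on the other 3, and 6.88 on that Lzlo array against 8.53 to 8.81. Srebf2 read 9.60 against 7.85 to 8.79, and 9.77 against 8.84 to 9.69. The neutrophil level of these arrays is given above, and their mean centred level of 17 mitosis genes was -0.31 and -1.39, against -0.53 to 0.69 on the other arrays. The part of either in these values was not tested.

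At high affinity alone (Lzhi minus Dzhi) the sterol median was 0.40 and the fatty acid median 0.25. The difference was above 0 for 20 sterol and 4 fatty acid genes, against 48.8% of all genes. No member passed in limma, where 0.0150% of all genes did, and 3 members (Fdft1, Insig1 and Fdps) were higher at an unadjusted p under 0.05, against 1.48%. Fdft1 differed by 0.57 ± 0.20, Insig1 by 0.49 ± 0.20 and Fdps by 0.55 ± 0.25 (limma adjusted p = 0.999 for each). Fdps differed by 0.31 without Dzhi replicate 4. With 1 array left out in turn, the sterol median ran from 0.29, without that same array, to 0.50. The fatty acid median rested on single arrays: it was 0.03 without Dzhi replicate 4, the array of code D, 0.45 without Dzhi replicate 3, 0.38 without Lzhi replicate 2 and 0.13 without Lzhi replicate 4.

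At low affinity alone (Lzlo minus Dzlo) the sterol median was 0.41 and the fatty acid median 0.38. The difference was above 0 for 21 sterol and 6 fatty acid genes, against 48.6% of all genes. No member passed in limma, where 0.0100% of all genes did, and 6 members were higher at an unadjusted p under 0.05 (Fdft1, Sqle, Lss, Dhcr7, Insig1 and Acaca), against 2.04%. Dhcr7 differed by 0.59 ± 0.14 (1.51-fold; limma adjusted p = 0.353) with no overlap between Lzlo (6.70 to 7.38) and Dzlo (6.26 to 6.65). Fdft1 differed by 0.64 ± 0.19, also without overlap of Lzlo and Dzlo, and Insig1 by 0.55 ± 0.18. The share of all genes without overlap of these 2 groups was not counted, so the separation is a description only. The 17 mitosis genes had a median of -0.71 here, with 16 below 0 and 10 at an unadjusted p under 0.05, and 11 of 12 neutrophil markers lay above 0 with a median of 0.62. None of these passed in limma (3 mitosis genes with the merged code as a block), and their part was not tested. Without the code D arrays of Dzlo and Lzlo the sterol median was 0.47 and the fatty acid median 0.51. The fatty acid median was 0.17 without Dzlo replicate 2 and 0.25 without Lzlo replicate 4.

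Between high and low affinity in the light zone (Lzhi minus Lzlo) the median difference was 0.12 for sterol and 0.03 for fatty acid genes. The difference was above 0 for 13 of 22 sterol and 4 of 7 fatty acid genes, against 49.9% of all genes. In the fit of group means no gene at all passed in limma (0%), and no member had an unadjusted p under 0.05, against 4.00% of all genes. The 3 members with the smallest p-values were Elovl6 (0.42 ± 0.24, and 0.20 without all arrays of code B), Msmo1 (0.75 ± 0.43) and Idi1 (0.88 ± 0.52). Markers of other cells and of division lay apart in the same comparison. All 17 mitosis genes lay above 0, with a median of 0.74 and 6 at an unadjusted p under 0.05, and their mean centred level ran from -0.07 to 0.39 in Lzhi and from -1.39 to -0.09 in Lzlo. Of 12 neutrophil markers 11 lay below 0, with a median of -1.19 and levels of -1.17 to 0.31 in Lzhi and -1.01 to 2.98 in Lzlo. All 8 T cell markers lay below 0, with a median of -0.65 and levels of -0.40 to -0.15 in Lzhi and -0.30 to 1.64 in Lzlo. None of these genes passed in limma, and their part in the members' values was not tested.

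Msmo1 read 9.34, 9.43 and 9.39 in Lzhi and 9.05, 8.91, 7.36 and 9.24 in Lzlo, with 8.73, 8.81, 8.83 and 7.79 in Dzhi and 8.43, 8.12, 7.28 and 8.82 in Dzlo. Every Lzhi array was above every Lzlo array, a separation whose share over all genes was not counted. The code D array of Lzlo set the size of the difference, which was 0.32 without it. With the merged code as a block the difference was 0.42 ± 0.17 (limma unadjusted p = 0.0272, adjusted p = 0.974). In that fit 942 genes had an unadjusted p under 0.05 in this comparison and none passed. Idi1 read 8.84, 8.57 and 8.35 in Lzhi and 8.04, 7.75, 6.00 and 9.04 in Lzlo, with 8.05, 8.10, 8.40 and 7.78 in Dzhi and 8.04, 7.48, 6.80 and 7.9997 in Dzlo. Lzlo held both the lowest and the highest array, and the difference was 0.31 without its code D array and 1.32 without Lzlo replicate 4. Without the code D array of Lzlo the sterol median was -0.0047 and the fatty acid median -0.10. The sterol median was also -0.0059 without Lzhi replicate 1, 0.06 without Lzlo replicate 2 and 0.23 without Lzlo replicate 4. The fatty acid median ran from -0.16 without Lzhi replicate 4 to 0.28 without Lzlo replicate 4. Within codes the sterol median was 0.15, 0.12 and -0.15 and the fatty acid median 0.07, 0.17 and -0.17 for codes A, B and C.

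**Figure D5:**
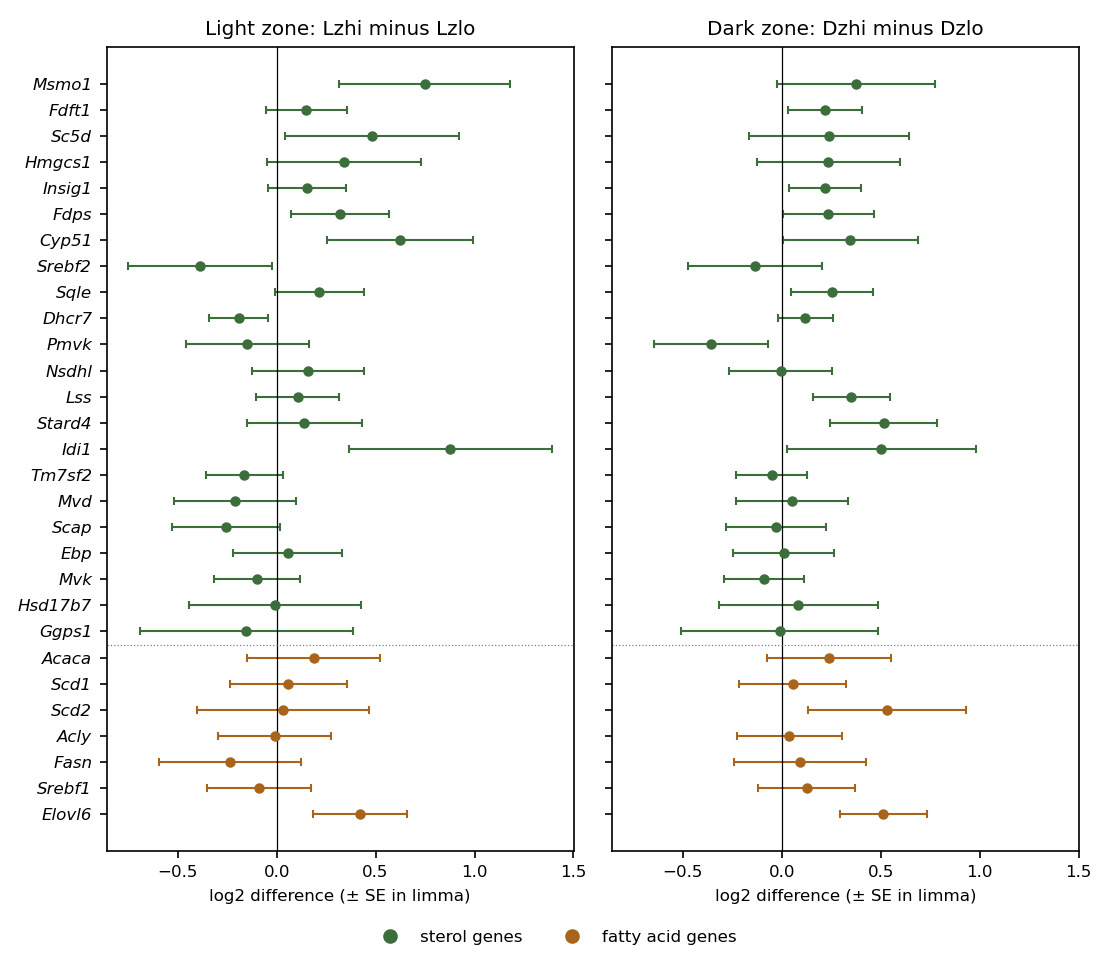
High minus low affinity difference on the log2 scale (x axes) in the light zone (left) and the dark zone (right) for the 29 members (y axis), with bars of ± 1 SE in limma. Most bars cross 0, and Elovl6, at 0.42 and 0.51, is the member furthest from 0 relative to its error in both panels.

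In the dark zone (Dzhi minus Dzlo) the medians were 0.17 for sterol and 0.12 for fatty acid genes. The difference was above 0 for 15 of 22 sterol and 7 of 7 fatty acid genes, against 50.4% of all genes. No gene passed in limma (0%), and Elovl6 was the 1 member with an unadjusted p under 0.05, against 1.60% of all genes. Within codes the sterol median was -0.08, 0.49, 0.20 and 0.02 and the fatty acid median -0.23, 0.59, 0.43 and 0.34 for codes A to D. Dzlo replicate 2, of code B, was the lowest array for both classes, and without it the medians were 0.09 and 0.07. Without Dzlo replicate 3, of code D, they were 0.10 and 0.28. The fatty acid median was -0.05 without Dzhi replicate 3, and 0.24, 0.23 and 0.22 without Dzhi replicate 1, Dzhi replicate 4 and Dzlo replicate 4.

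Elovl6 read 6.22, 6.68, 5.72 and 6.55 in Dzhi, 5.66, 5.90, 5.88 and 5.68 in Dzlo, 6.06, 6.38 and 5.91 in Lzhi, and 5.90, 5.45, 6.15 and 5.28 in Lzlo. High affinity was higher in all 3 light zone and all 4 dark zone pairs of 1 code, while the groups overlapped in both zones. Of all genes, 15.7% were higher in every light zone pair and 3.94% in every dark zone pair. The share that did both was not counted. The dark zone difference was 0.51 ± 0.22 (1.43-fold; limma adjusted p = 1). Stard4 read 7.85, 8.55, 8.45 and 8.26 in Dzhi and 8.16, 7.95, 8.07 and 6.88 in Dzlo, with 8.84, 8.62 and 7.93 in Lzhi and 8.45, 8.38, 8.37 and 8.10 in Lzlo. Its dark zone difference of 0.51 ± 0.27 rested on the single low Dzlo array, replicate 4, and was 0.22 without it. Lss had 0.35 ± 0.20 there.

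Whether affinity acted differently in the zones was tested as the light zone difference minus the dark zone difference. No gene passed in limma (0%), and no member had an unadjusted p under 0.05, against 1.33% of all genes. The medians were -0.05 for sterol and -0.09 for fatty acid genes, with 9 and 1 members above 0, against 49.7% of all genes. Dhcr7 (-0.31 ± 0.20), Stard4 (-0.37 ± 0.40) and Lss (-0.24 ± 0.29) had the smallest p-values. Leaving out 1 array at a time moved each of them. Dhcr7 ran from -0.41 to -0.18, the latter without Lzlo replicate 4. Stard4 was -0.08 without Dzlo replicate 4, -0.11 without Lzhi replicate 4 and -0.56 without Lzhi replicate 1. Lss was -0.05 without Lzhi replicate 2, -0.13 without Dzhi replicate 3, -0.14 without Lzlo replicate 1, -0.15 without Dzlo replicate 2 and -0.37 without Lzhi replicate 4. The sterol median ran from -0.12 to 0.07 when arrays were left out in turn, changing sign without any 1 of Dzhi replicate 3, Dzlo replicate 2, Lzhi replicate 2, Lzlo replicate 1 or Lzlo replicate 4. The fatty acid median ran from -0.27 without Dzlo replicate 3 to -0.02 without Dzhi replicate 3. The 6 comparisons share arrays, and their values are given side by side without a test of one against another.

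Genes around the 2 pathways were read from 4 further lists. Of 6 other genes of sterol synthesis and SREBP processing, 5 lay above 0 between zones with a median of 0.15, led by Erg28, a scaffold of the ring enzymes, at 0.45 ± 0.28, and Tmem97 at 0.22 ± 0.17. Of 12 genes of sterol uptake, storage and efflux, 5 lay above 0 with a median of -0.03. Of 19 other genes of fatty acid and lipid synthesis, 12 lay above 0 with a median of 0.04, and of 16 genes of fatty acid oxidation 8 did, with a median of -0.0085. None of these 53 genes passed in limma in the zone comparison. An unadjusted p under 0.05 was found for 3 of them (Npc1, Abcg1 and Fads2), against 4.38% of all genes, so the share of these lists was near the background. Npc1, which exports cholesterol from lysosomes, differed by 0.41 ± 0.13 (adjusted p = 0.596) and Abcg1, a sterol exporter, by 0.27 ± 0.11. For Abcg1 only the Lzlo arrays lay above the dark zone arrays, and every Lzhi array lay within or below their range (values further on). Fads2, a desaturase of polyunsaturated fatty acids, differed by -0.60 ± 0.26, with Dzhi replicate 3 at 9.26 and the other dark zone arrays between 6.82 and 7.89. Fads1, its partner, had -0.29 ± 0.14, Acadl, of mitochondrial oxidation, 0.30 ± 0.16, and Etfdh, which passes its electrons on, -0.36 ± 0.23.

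With affinity in the light zone, 9 of the 12 genes of sterol uptake, storage and efflux lay below 0, with a median of -0.26. None passed in limma, and 3 (Abcg1, Mylip and Abca1) had an unadjusted p under 0.05, against 4.00% of all genes. Over all 4 lists 5 of 53 genes did, the other 2 being among the 16 genes of fatty acid oxidation. Abcg1 read 5.67, 6.11 and 6.13 in Lzhi and 6.52, 6.31, 7.01 and 6.58 in Lzlo, with 5.84, 5.88, 6.20 and 6.10 in Dzhi and 5.87, 6.10, 6.11 and 6.04 in Dzlo. Every Lzlo array was above all the other 11 arrays, and how many of all genes did the same was not counted. Lzhi minus Lzlo was -0.64 ± 0.17 (limma adjusted p = 1), and this comparison of Abcg1 was picked after its values were seen, as were the next genes. Mylip, which targets lipoprotein receptors for breakdown, had -0.81 ± 0.25 and Abca1, another exporter, -0.62 ± 0.26 in the same comparison, with overlap between the groups. The mean centred level of 9 macrophage and monocyte markers was -0.40, -0.06, 1.16 and 0.37 on the 4 Lzlo arrays, in the same order as the Abcg1 values, against -0.44 to 0.52 on the other arrays. Both were highest on the array of code D, and the part of those cells was not tested.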

How the data were processed

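RNA of 15 sorted samples was amplified and hybridised, 1 sample per array. The deposited table holds log2 values of 28853 probe sets that the authors obtained by RMA (background correction, quantile normalization and probe summary), as the submitters' processing notes state, together with the build mm8. The software is not given in the sources used here. Differences of dim probe sets are narrowed by RMA, and the table holds no detection calls. Groups and replicate numbers came from the sample titles.

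Platform annotation gave 1 gene to 21789 probe sets, several to 1621 and none to 5443. The probe set of highest mean stood for each of 999 genes with several, giving 19938 genes in all. Dim genes were kept, so all 29 measured members were tested. The highest correlation between arrays was 0.993, and none was counted as a repeat.

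Limma 3.58.1 in R 4.3.3 fitted 4 group means with 11 residual degrees of freedom. P-values were adjusted by Benjamini-Hochberg over all genes within each of 6 comparisons, and a call needed an adjusted p under 0.05. The number of arrays limits the precision. Lists are described by counts and medians with no list test. On simulated data, 200 genes changed among 19938, and 84% of genes changed by 1 and 99% of those changed by 2 (log2) were recovered between zones. The simulated noise was independent between arrays, and both changes exceed the largest zone difference of a member (0.74). These rates therefore do not give the chance of finding the members' differences. Promoter searches used Python 3.11.15, and figures matplotlib 3.10.9.

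Members and lists were chosen with earlier results of these data known. Members named with every value are the 8 with the smallest p between zones, the 3 in each other comparison, and Srebf1, Srebf2 and Insig1. Of each further list the 2 genes with the smallest zone p are named.

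The code in the sample descriptions takes 5 forms, merged to 4 where forms differed in their last number only. Deviations of arrays from their group means correlated at 0.288 on average within a code (16 of 21 pairs over 0.1) and at -0.08 between codes (21 of 63 pairs), and at 0.227 for the same title number (15 of 21 pairs over 0.1). Whether a code marks a shared experiment is not known, so the main fit has no block and blocked values stand beside the results they change. Alternatives are listed in the closing section.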

Additional observations from a re-analysis of the deposited data

Results flagged for a closer look

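Single arrays far from the others of their group were looked for in the 93 sets of 4 arrays formed by the members and the groups Dzhi, Dzlo and Lzlo (and the levels of the classes), and 6 were found; chance flags about 1 in 20 such sets. Hmgcs1 read 8.19 on Lzlo replicate 3, of code D, against 9.62 to 9.86 on the other Lzlo arrays. Sc5d read 6.88 on the same array, against 8.53 to 8.81. Hmgcs1 read 8.68 on Dzhi replicate 3, of code C, against 9.20 to 9.27 on the other Dzhi arrays. Msmo1 read 7.79 on Dzhi replicate 4, of code D, against 8.73 to 8.83. Pmvk read 7.51 on Dzlo replicate 2, of code B, against 8.16 to 8.28 on the other Dzlo arrays. Stard4 read 6.88 on Dzlo replicate 4, of code C, against 7.95 to 8.16. The number found was near that rate. All 6 were below the rest of their group. All 6 belong to sterol genes (5 to enzymes, 1 to Stard4), but 22 of the 29 members are sterol genes, so this is no result about them. The 2 on Lzlo replicate 3 came from the array with the highest neutrophil level (2.98), whose part was not tested.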

How the results depend on the processing

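The count of members called between zones was 0 in the main fit and 2 (Fdft1 and Insig1) with the replicate block by merged code, 1 (Fdft1) with that code as a random block and 1 (Insig1) with the replicate block by title number. Blocking by the code as written gave 0. Over all genes these fits called 90, 78, 83 and 35 genes between zones, against 31 in the main fit, 68 with array weights, 18 to 37 when 1 array was left out and 0 without all arrays of code B (632 genes at an unadjusted p under 0.05 in limma). The blocks, a hint of pairing only, called no member in the other 5 comparisons. For Srebf1 between zones, leaving out 1 array gave -0.0323 to 0.16, the lowest without Lzhi replicate 4. The fatty acid median of affinity in the light zone ran from -0.16 to 0.28 over such fits, the highest without Lzlo replicate 4. Among summary results, 500 other values kept their direction or moved by less than the spread between arrays, and among single genes 682 did. The other alternatives were centring each array, leaving out the dimmest genes, averaging probe sets, another variance model, fitting only the compared groups (no separate value for the comparisons that use all 4) and an adjusted p under 0.10, at which no member passed in the main fit. Leaving out all arrays of code D or of code B was chosen after seeing the data. Limma's array weights stopped before full convergence. The cause of these shifts was not tested.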
